A study of Mus musculus with 4 samples.

Results

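BCL6 is a zinc finger repressor of transcription, and its binding in mouse adipocyte nuclei was examined here at 9 genes that govern how fat cells burn or store fuel: Cpt1a, Acadm, Acadl, Pdk4, Ppargc1a, Ppargc1b, Ucp1, Atp5g1 and Bnip3. Every peak, at any distance, was taken whose nearest promoter belongs to 1 of these genes in the authors' annotation. This gave 4 of the 1785 peaks of the inguinal list and 6 of the 3956 peaks of the perigonadal list, 10 of 5741 in all. They belonged to 6 of the 9 genes, and Acadm, Acadl and Ucp1 had no assigned peak in either depot.

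The lists come from chromatin immunoprecipitation with sequencing (ChIP-seq) of inguinal fat, a subcutaneous depot, and perigonadal fat, a visceral depot. The C57BL/6 mice of both depots carried Adipoq-Cre, which is active in adipocytes, and Sun1-sfGFP-myc, a nuclear membrane tag by which nuclei were drawn out of the crosslinked tissue before precipitation with a custom guinea pig antibody against mouse Bcl6. Each depot had 1 BCL6 library, analysed here, and 1 input library, not analysed here. Age, sex and the number of mice are not given in the sources used here. No gene or peak could therefore be compared between depots against the spread of animals, and no p-value is given. The lists hold no expression values, so the adipocyte label could not be checked against marker genes, and a peak says where BCL6 was found and not what the gene did.

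Fatty acids enter the mitochondrion through the carnitine shuttle, whose controlled step is CPT1. They are then shortened in rounds of beta-oxidation, each opened by a chain-length-specific acyl-CoA dehydrogenase. PDK4 inhibits the pyruvate dehydrogenase complex and so turns cells from glucose to fatty acids, while the PGC-1 coactivators switch on the genes of oxidation and respiration. White adipocytes mostly store fatty acids, and thermogenic adipocytes oxidise them and release the energy as heat through UCP1. In liver and macrophages, BCL6 is known as a repressor that can share sites with STAT and nuclear receptor proteins.

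The only promoter among the peaks was that of Pdk4, and its sequence is shown because it is the place where a peak came nearest to a start site. The perigonadal peak, at chr6:5496544-5496728 on mm10, starts 16 bases beyond the upstream end of the 250 bases below, which lie at chr6:5496279-5496528 on the minus strand of GRCm38.p6 and end at the last base before the start site (sequence from RefSeq). Capitals mark the 2 places where the letters TTCC, the opening of the BCL6 core motif, occur on either strand.

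Pdk4 promoter: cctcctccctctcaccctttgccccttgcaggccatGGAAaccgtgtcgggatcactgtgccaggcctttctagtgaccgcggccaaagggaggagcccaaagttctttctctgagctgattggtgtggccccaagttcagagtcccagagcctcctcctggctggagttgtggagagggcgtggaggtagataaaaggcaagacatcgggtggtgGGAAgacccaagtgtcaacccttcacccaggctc

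These 4 letters are common and occurred on either strand in 96.0% of 32851 promoter windows of 300 bases (250 before to 50 after a start site). The core TTCCNNGAA, searched on both strands, occurred in 0 of the 8 member windows at hand and in 4.81% of all windows. The STAT palindrome TTCNNNGAA, which takes in every match of that core, occurred in 0 of the 8 and in 8.30% of all. The forkhead motif GTAAACA was found in 0 of the 8 and in 3.65% of all, on both strands. The nuclear receptor half-site AAGGTCA was found in 1 of the 8, Acadm, where it reads TGACCTT and begins 249 bases before the start site, and in 4.72% of all windows. No assigned peak overlapped its own gene's window: the nearest after Pdk4 was that of Atp5g1, 922 bases away. The letters of the peaks themselves were not examined, since no genome sequence was used.

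The peak heights are the authors' scores, which rise in even steps of 0.752 (inguinal fat) and 0.882 (perigonadal fat), each read as 1 sequenced tag. Scores are scaled within a list, so they rank peaks there and give no level between depots. The intervals are exact Poisson 95% intervals of the tags and cover counting error only. Scores had a minimum of 6.77 and a median of 9.03 in the inguinal list, and a minimum of 5.29 and a median of 8.82 in the perigonadal list.

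**Figure D1:**
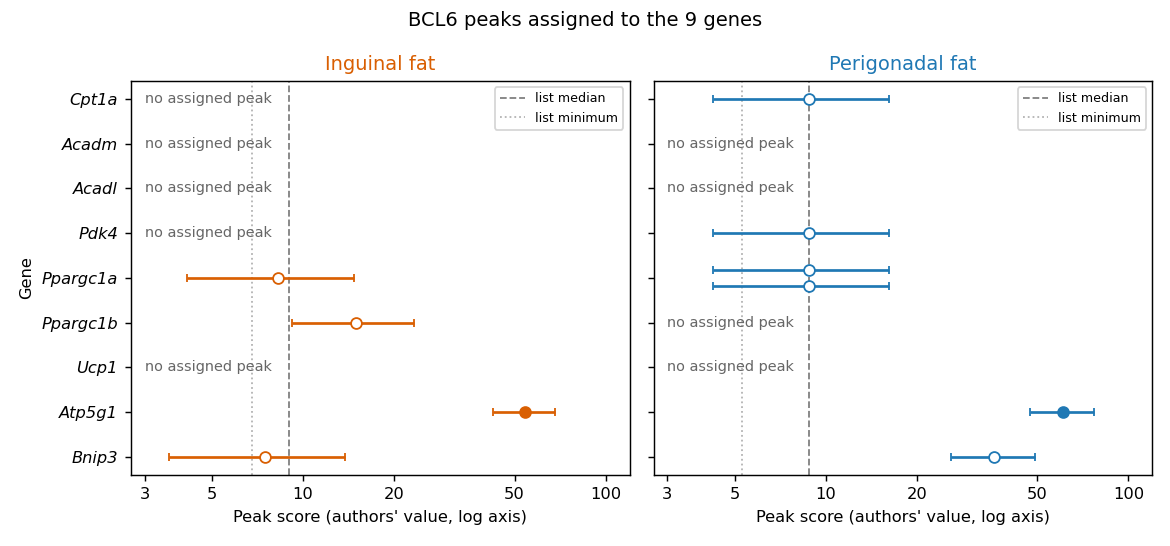
Score of each assigned peak (log axis) in inguinal fat (left) and perigonadal fat (right), 1 library each, with its Poisson 95% interval. Filled points overlap a peak of the other depot, open points do not, and lines mark each list's median and minimum; only the Atp5g1 points are filled, and 4 of the 6 perigonadal points sit on the median of 8.82.

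A peak was assigned to 4 of the 9 genes in inguinal fat, where 6.15% of 21883 protein-coding genes had one. In perigonadal fat 5 of the 9 had one, beside 12.3% of protein-coding genes. Peaks in both lists were assigned to 3 of the 9, Ppargc1a, Atp5g1 and Bnip3, beside 3.0% of genes. Peaks in at least 1 list were assigned to 6 of the 9, beside 15.4%. The 9 genes were chosen with earlier results of these data known, so the gap between these shares and the background is a description and not evidence of enrichment. The genes differ in extent: Ppargc1a spans 662 kb and is longer than 99.4% of protein-coding genes, whose median is 17.2 kb, and Atp5g1 spans 2.90 kb. The part of gene length in these counts was not tested.

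Among the genes of fatty acid entry and oxidation, 1 of 3 had an assigned peak, in perigonadal fat, beside 12.3% of protein-coding genes. The inguinal share of protein-coding genes was 6.15%. Cpt1a, the liver-type carnitine palmitoyltransferase that lets long-chain fatty acids into mitochondria, had a perigonadal peak 2.93 kb upstream of its promoter, in intergenic sequence at chr19:3320281-3320465. It scored 8.82 (4.23 to 16.2), or 10 tags, the most frequent height of the list, which 1398 peaks or 35.3% share. In inguinal fat the peak nearest to the Cpt1a start site lay 136 kb away, in the last intron of Ppp6r3, with a score of 12.8 (7.45 to 20.5), and the authors assigned it to Gal. Inguinal fat thus had no called peak close to Cpt1a, which does not show that BCL6 was absent there.

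Acadm and Acadl encode the medium-chain and long-chain acyl-CoA dehydrogenases, which carry out the opening step of each round of beta-oxidation. Neither had an assigned peak. The nearest peaks to Acadm lay 1318 kb away in inguinal fat, in an intron of Ak5, and 367 kb away in perigonadal fat, in an intron of Lhx8, with scores of 7.52 in inguinal and 7.93 in perigonadal fat. The nearest peaks to Acadl lay 2625 kb away in inguinal fat, with a score of 8.27, and 119.7 kb away in perigonadal fat, in an intron of Kansl1l, with a score of 7.05. The distance from a start site to the nearest peak had a median of 424 kb over 17492 protein-coding genes in inguinal fat and 184 kb over 17274 in perigonadal fat. Genes on a chromosome without a peak in a list were left out for that list, so the gene sets of the depots differ. In inguinal fat 18.3% of genes lay farther from a peak than Acadm and 7.39% farther than Acadl. In perigonadal fat 29.3% of genes lay farther from a peak than Acadm, and Acadl was nearer than the median.

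Pdk4, the fuel switch gene, had no inguinal peak, the nearest lying 737 kb away in Peg10 with a score of 8.27. Its perigonadal peak lay 0.358 kb upstream of the start site, annotated as promoter. A perigonadal peak as near was found for 0.660% of protein-coding genes, a description, since Pdk4 was chosen with earlier results known. The score was again 8.82 (4.23 to 16.2), or 10 tags. Its focus ratio, a fraction that the authors' lists give for each peak, was 0.647, and 2.53% of the perigonadal list was lower. Among the peaks of the 9 genes, the one nearest to a start site thus had a low focus ratio within its list. It rested on few tags, and no interval was computed for the ratio.

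**Figure D2:**
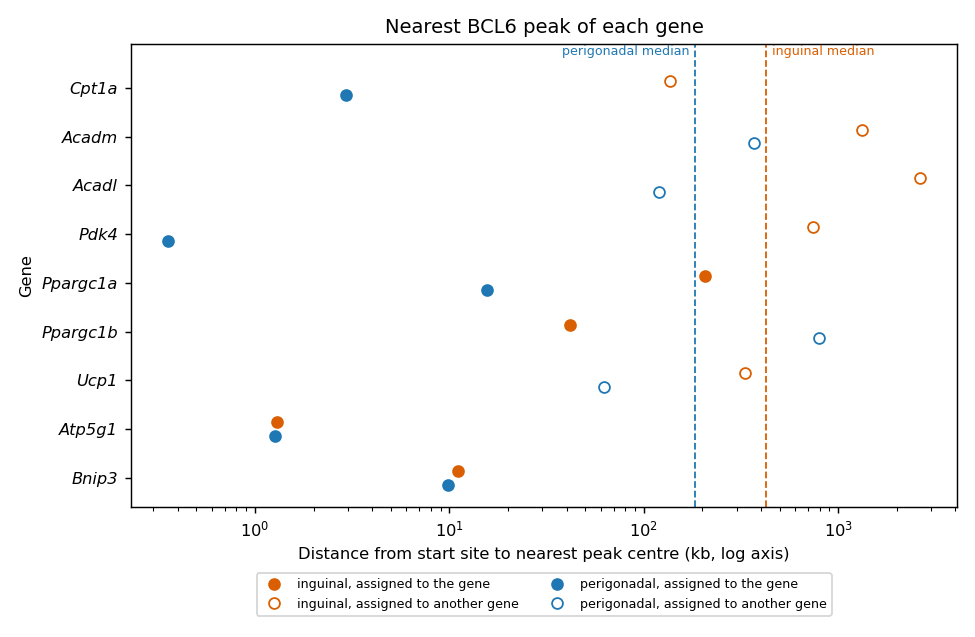
Distance in kb (log axis) from each gene's start site to the centre of the nearest peak in inguinal (orange) and perigonadal fat (blue), whichever gene the authors assigned it to. Filled points are peaks assigned to the gene, open points belong to another gene, and dashed lines are the medians over protein-coding genes, 424 kb in inguinal and 184 kb in perigonadal fat; Acadm, Acadl and Ucp1 have open points in both depots.

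The PGC-1 coactivators dock on nuclear receptors and other factors and raise mitochondrial gene expression. Ppargc1a, which encodes PGC-1alpha, had 1 inguinal and 2 perigonadal peaks, none at the same place. The inguinal peak, at chr5:51773672-51773874, lay 206 kb upstream of the promoter with a score of 8.27 (4.13 to 14.8), or 11 tags. A perigonadal peak at chr5:51552035-51552219 lay in intron 1 of 12 of a transcript that starts farther upstream, 1.79 kb downstream of an internal promoter, and scored 8.82 (4.23 to 16.2). The other, at chr5:51670891-51671075, lay 103 kb upstream in an RMER1A repeat, also with 8.82. The peak inside intron 1 had a focus ratio of 0.909, higher than 75.5% of the list, and the one in the repeat 0.714, higher than 9.66%.

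The authors called both far peaks of Ppargc1a intergenic. In the RefSeq table of GRCm38.p6 the gene reaches farther upstream, and all 3 peaks fall inside its extent. The closest of these peaks from different depots were still 103 kb apart. Each of these peaks stood at or below the median of its list, at 0.916 times the median in inguinal and 1.00 times in perigonadal fat.

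Ppargc1b, which encodes PGC-1beta, had a single peak, in inguinal fat. It lay 41.8 kb upstream in intergenic sequence at chr18:61442086-61442288, with a score of 15.0 (9.19 to 23.2), or 20 tags. It stood above 81.7% of the inguinal list, and its interval lies above the list's median of 9.03. In perigonadal fat no peak was assigned to Ppargc1b, and the nearest lay 794 kb from the start site, in intron 1 of Synpo, with a score of 20.3. In that list 87.5% of protein-coding genes had a peak as near. Both lists thus held peaks for Ppargc1a, at low height, and only the inguinal list held a peak for Ppargc1b, at a greater height.

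Ucp1, the proton carrier of thermogenic adipocytes, had no assigned peak. The nearest inguinal peak lay 331 kb away in intron 1 of Rnf150, with a score of 9.03 (4.66 to 15.8). The nearest perigonadal peak lay 62.4 kb away in intron 1 of Mgat4d, with a score of 9.70 (4.84 to 17.4). In inguinal fat 41.9% of protein-coding genes had a peak as near, and in perigonadal fat 23.5%, so Ucp1 was not far from peaks compared with other genes.

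Atp5g1, which encodes subunit c of the proton-driven rotor of ATP synthase, had the tallest peaks of the group and its only shared site. Its inguinal peak, at chr11:96076829-96077031, scored 54.2 (42.4 to 68.2), or 72 tags, and ranked 10 of 1785. Its perigonadal peak, at chr11:96076804-96076988, scored 60.8 (47.3 to 77.0), or 69 tags, and ranked 15 of 3956, tied with 1 other peak. The peaks overlapped by 160 bases, with centres 34 bases apart, 1.24 kb upstream of the promoter in inguinal and 1.2 kb in perigonadal fat.

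The Atp5g1 site lies in an L1M5 element, an old LINE fragment. All L1M5 elements together held 10 peaks of the inguinal list and 8 of the perigonadal list. The focus ratio at the Atp5g1 site was 0.902 in inguinal fat, where the list median was 0.812. In perigonadal fat it was 0.894, where the list median was 0.833. A further inguinal peak lay 15.9 kb away in exon 3 of the neighbouring Ube2z and scored 7.52 (3.61 to 13.8), far below the Atp5g1 peak. Besides Atp5g1, 0 of the 8 other peaks of the group overlapped a peak of the other depot. A partner was found for 1 of the 4 inguinal peaks of the group, beside 28.5% of the inguinal list, and for 1 of the 6 perigonadal ones, beside 12.8% of the perigonadal list. A shared peak was assigned to 1 of the 9 genes, beside 1.87% of protein-coding genes.

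**Figure D3:**
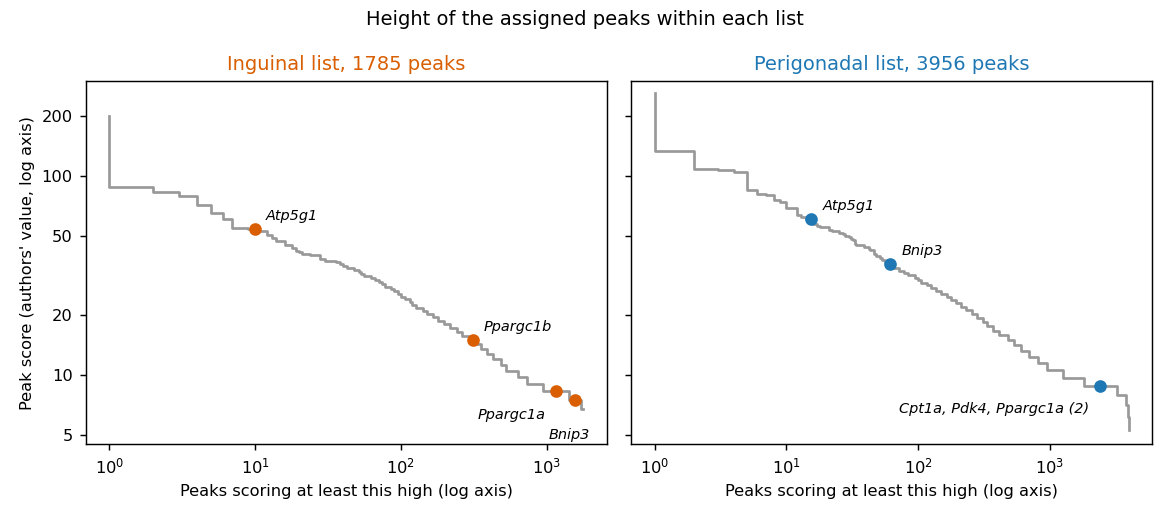
Score against the number of peaks that score at least as high (both log axes) for the inguinal list (left) and the perigonadal list (right). Points mark the assigned peaks at the middle of their tied ranks; Atp5g1 is high in both lists, Bnip3 is high in the perigonadal list with 36.1 and near the bottom of the inguinal list with 7.52.

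Bnip3, a receptor on the outer mitochondrial membrane that hands mitochondria to autophagy, had a peak in each depot at different places. The inguinal peak lay in intron 2 of 5, 11.1 kb downstream of the promoter at chr7:138898343-138898545, and scored 7.52 (3.61 to 13.8), or 10 tags. Only 3.19% of the inguinal list scored lower. The perigonadal peak lay 9.85 kb upstream in intergenic sequence at chr7:138919267-138919451 and scored 36.1 (25.9 to 49.0), or 41 tags. It shared ranks 59 to 64 of 3956 with the other peaks of its score and stood at 4.09 times the list's median.

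The Bnip3 peaks were 20.9 kb apart, on opposite sides of the start site. No inguinal peak was called at the tall perigonadal site. A calling limit is named for the inguinal peaks alone, in their header, so a site of 1 depot and a difference in calling cannot be told apart. Of protein-coding genes, 2.43% had an inguinal peak as near to the start site as Bnip3, and 5.11% a perigonadal one. Bnip3 was chosen with earlier results of these data known, so these shares are descriptions.

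**Figure D4:**
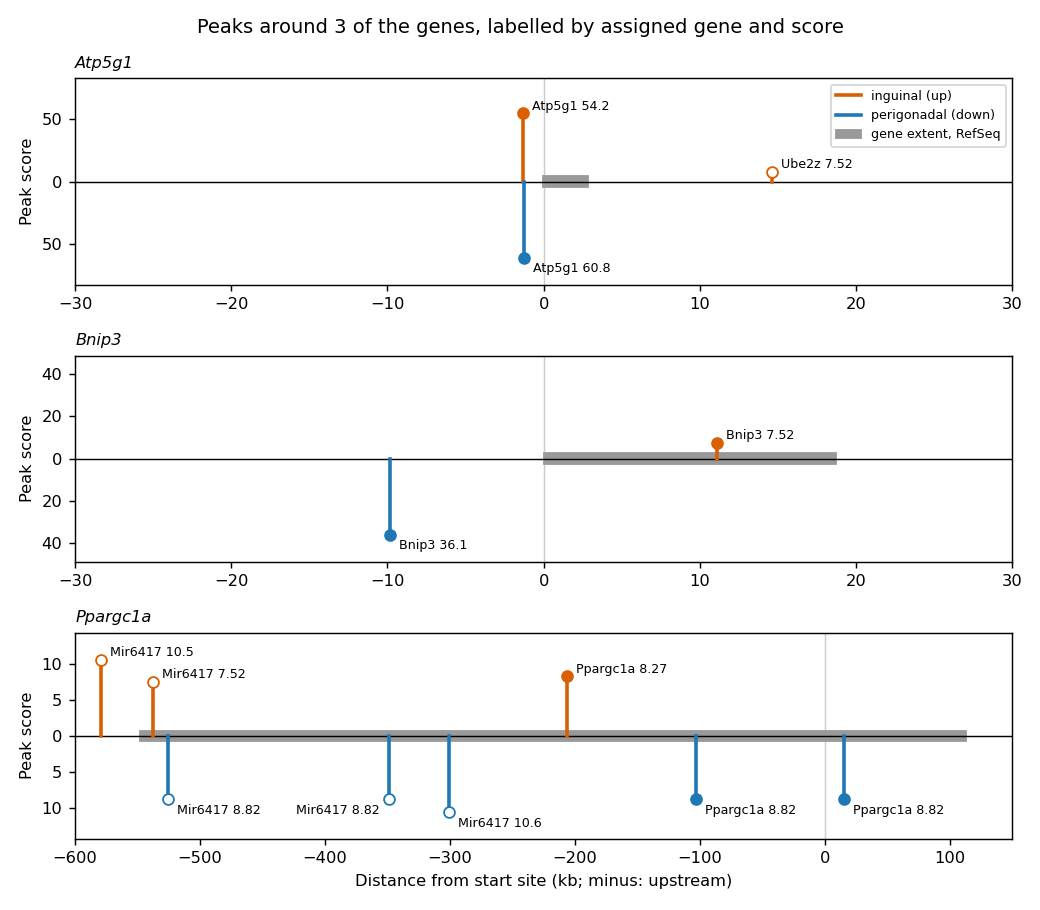
Peaks around Atp5g1, Bnip3 and Ppargc1a by distance from the RefSeq start site in kb, inguinal upward and perigonadal downward, bar length giving the score; filled heads are peaks assigned to the gene and open heads to another, and grey boxes are the gene's RefSeq extent. The Atp5g1 bars meet at 1 site (54.2 in inguinal and 60.8 in perigonadal fat), while Bnip3 and Ppargc1a have bars at separate places.

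As a group the peaks were of mixed height. In inguinal fat 2 of 4 stood above the list's median, beside 41.3% of the list, and in perigonadal fat 2 of 6, beside 45.7%. Peaks of up to 12 tags were 2 of the 4 inguinal ones, beside 58.7% of the list, and 4 of the 6 perigonadal ones, beside 76.0%. The authors annotated as intergenic 3 of 4 in inguinal fat, beside 43.5% of the list, and 4 of 6 in perigonadal fat, beside 42.9%; 1 of these in each depot lies inside the RefSeq extent of Ppargc1a. Upstream of the promoter lay 3 of 4 inguinal peaks, beside 40.8%, and 5 of 6 perigonadal ones, beside 42.1%. Repeats held 1 of 4 inguinal peaks, beside 21.1%, and 2 of 6 perigonadal ones, beside 24.0%. With so few peaks these shares are descriptions.

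The 9 genes were then set in their pathways, through 6 lists with 99 genes in all, which take in the 9 members and were also written with earlier results known. With a promoter within 50 kb, 8 of the 99 genes had an inguinal peak (8.08%, Wilson 95% interval 4.15 to 15.1%), beside 4.25% of protein-coding genes, and 10 had a perigonadal peak (10.1%, 5.58 to 17.6%), beside 8.89%. The 9 members supplied 3 of the 8 inguinal genes (Atp5g1, Bnip3 and Ppargc1b). They supplied 5 of the 10 perigonadal genes (Atp5g1, Bnip3, Cpt1a, Pdk4 and Ppargc1a). These shares are thus in large part those of the members, and they say little about the other listed genes. The intervals cover counting error only, and no list was tested against the background. Only Atp5g1 and Bnip3, both of them members, had peaks in both depots, 2 of 99, beside 1.80% of protein-coding genes.

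In the beta-oxidation list 0 of 22 genes had an inguinal peak at any distance (up to 14.9% by the Wilson interval), beside 6.15% of protein-coding genes. Perigonadal fat had 3 such genes, all with a peak within 50 kb, beside 12.3% at any distance and 8.89% within 50 kb. Besides Cpt1a these were Decr1, which encodes the dienoyl-CoA reductase needed for unsaturated fatty acids, with a peak 0.0230 kb from its start site, and Etfa, which encodes a subunit of the flavoprotein that takes electrons from the dehydrogenases, with a peak in intron 8 of 11. Both scored 8.82 (4.23 to 16.2), the same height as the Cpt1a peak. All 3 thus stood at the most frequent height of the perigonadal list.

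Within 50 kb, the transcriptional control list had peaks for 4 of 20 genes in inguinal fat, beside 4.25% of protein-coding genes, and for 1 of 20 in perigonadal fat, beside 8.89%. The perigonadal gene was Ppargc1a. At any distance the counts were 6 in inguinal fat, beside 6.15% of protein-coding genes, and 1 in perigonadal fat, beside 12.3%. The inguinal count then takes in Ppargc1a and Nrip1, a corepressor gene with a peak at 236 kb and a score of 14.3 (8.60 to 22.3). Within 50 kb, besides Ppargc1b, the inguinal ones were Sirt1, a deacetylase gene, with a peak of 10.5 (5.76 to 17.7) that lies in the neighbouring gene Herc4, Nrf1, which encodes nuclear respiratory factor 1, with 8.27 in intron 1, and Tfb2m, which encodes a mitochondrial transcription factor, with 8.27 in intron 3. The Ppargc1b peak was the tallest of the list. The difference between the depots was not tested.

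Of 13 genes around the pyruvate dehydrogenase complex 1 had a peak within 50 kb in each depot. The share of protein-coding genes was 4.25% in inguinal and 8.89% in perigonadal fat. The inguinal gene of this list was Pdp1, which encodes the phosphatase that undoes the action of the PDK kinases. Its peaks scored 12 (6.88 to 19.5) and 7.52, at 47.7 and 24.8 kb. In perigonadal fat the gene was Pdk4. Of 16 uncoupling and thermogenic genes 1 had an inguinal peak within 50 kb, beside 4.25% of protein-coding genes, and 1 a perigonadal one, beside 8.89%. The inguinal gene was Slc25a5, an ADP/ATP carrier gene on chromosome X, with 12 (6.88 to 19.5). The perigonadal gene was Dio2, which encodes the deiodinase that activates thyroid hormone, with 7.93 (3.63 to 15.1) in its last exon. Dio2 also had inguinal peaks farther off, at 85.7 kb with 9.03 and at 116 kb with 7.52. Ucp1 had no assigned peak at any distance.

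The next counts stand beside the same shares of protein-coding genes within 50 kb, 4.25% in inguinal and 8.89% in perigonadal fat. Of 12 mitophagy genes, and within 50 kb, Bnip3 was the 1 with a peak in either depot. Of 16 ATP synthase genes 1 had an inguinal peak within 50 kb, Atp5g1, and 3 a perigonadal one. The other perigonadal ones were Atp5l, which encodes subunit g, with 10.6 (5.47 to 18.5) on its promoter, and Atpif1, which encodes the inhibitor of the enzyme, with 8.82 at the end of the gene. The Atp5g1 score of 60.8 was well outside the intervals of both.

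**Figure D5:**
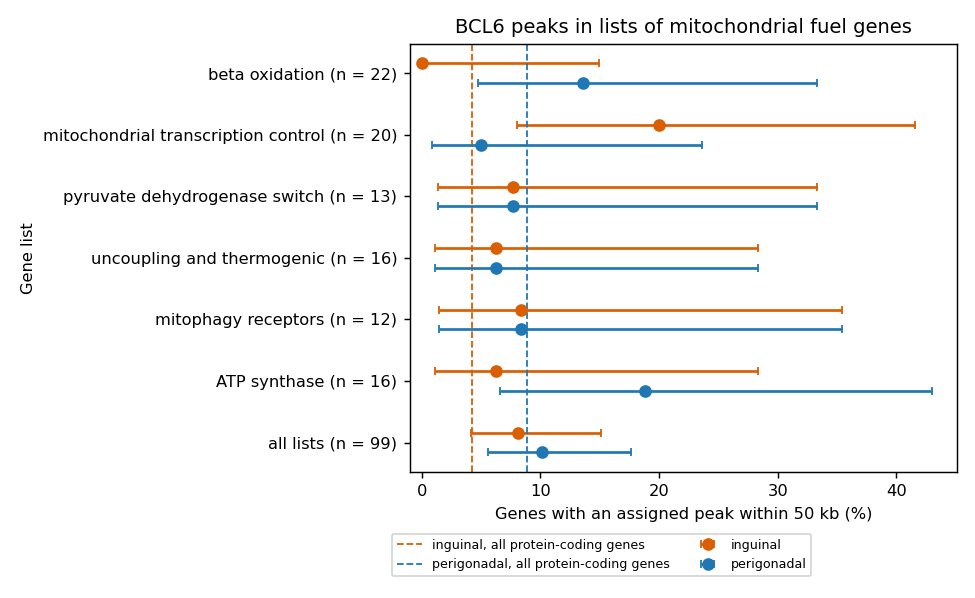
Share of each gene list with an assigned peak within 50 kb (x axis, %) in inguinal (orange) and perigonadal fat (blue), with Wilson 95% intervals; dashed lines are the shares of all protein-coding genes, 4.25% in inguinal and 8.89% in perigonadal fat. The intervals are wide, since each list has from 0 to 4 genes with a peak in a depot, and the lists were chosen with earlier results known, so no point is read against its line.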

How the data were processed

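The authors' deposited lists are HOMER peak annotations on mm10, per the file headers; Bowtie 1.2 and HOMER are named in the submitters' processing notes. The inguinal header names a false discovery rate of 0.001 and the perigonadal header no threshold. The deposited peak score is the authors' value; the sources used here do not give the total it was scaled to, so depth is unknown. The deposited focus ratio is a fraction, and the deposited distance to the promoter is a signed number of bases. Scores were whole multiples of 1 step in 100.0% of cases, allowing for the rounding of the files, which gave tags.

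Members were found by Entrez number (1589 of 1593 inguinal and 3178 of 3180 perigonadal numbers matched RefSeq's table of GRCm38.p6). Peaks overlapping by at least 1 base were shared. Background shares were counted over protein-coding genes. Distances to the nearest peak used RefSeq start sites, and the authors' own for Ppargc1b. With 1 library per depot, no test was run. The procedure was tested on simulated peaks (Python 3.11.15, pandas 2.3.3, scipy 1.17.1).

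The text names all 9 members and, from each pathway list, up to 4 further genes with the tallest peak within 50 kb; genes that hold or neighbour a peak were added. Members, lists and motifs were chosen with earlier results of these data known, the forkhead, half-site and TTCC motifs after the values were seen. Alternatives changed the assignment, height, list length and overlap.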

Additional observations from a re-analysis of the deposited data

Results flagged for a closer look

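Beside the peaks assigned to Ppargc1a, its RefSeq extent held peaks that the authors assigned to Mir6417, a microRNA gene, and that entered none of the counts of the 9 genes. They are given because they lie outside those counts, not for their height: they rest on 10 to 12 tags, and every peak of either list rests on more than the 3 that a count of 0 allows. In inguinal fat there was 1, with a score of 7.52 (3.61 to 13.8) at chr5:52105969-52106171. In perigonadal fat there were 3, with scores of 10.6 (5.47 to 18.5) at chr5:51868280-51868464, 8.82 (4.23 to 16.2) at chr5:51916937-51917121 and 8.82 at chr5:52093607-52093791. With them the extent of Ppargc1a held 2 inguinal and 5 perigonadal peaks, none of them shared. Whether they have a part in the regulation of Ppargc1a was not tested.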

How the results depend on the processing

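Of 26 recomputed counts 18 stayed within 1.5 times of the value reported. Members with a peak in inguinal fat, 4, became 1 with a promoter within 10 kb and 2 with peaks above the list's median. Members with a peak in perigonadal fat, 5, became 2 with peaks above the median and 2 with both lists held to the shorter length, which leaves out all perigonadal peaks of 10 tags. Members with a shared peak stayed at 1 under all 6 alternatives run, and shared peaks at 1 under both overlap rules. Of the 99 listed genes, the inguinal 8 became 4 within 10 kb and 5 above the median, and the perigonadal 10 became 3 above the median and 3 at the shorter length. Peaks of about 10 tags limit these counts, and no second library shows which would recur. No paired analysis was possible because each depot had 1 library and no result came from a test.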
